A study of Homo sapiens with 21 samples.

Results

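Interferon-stimulated genes were followed in RNA sequencing of 2 human cell lines exposed to tunicamycin, as 44 genes taken by symbol from a table of 60671 genes. The 44 genes were selected with their measured levels in all 7 groups, with the difference between DMSO at 24 h and at 4 h, and with the 3 differences between tunicamycin and DMSO, so the values of those comparisons are descriptions and carry no test here. All 44 symbols matched 1 gene each, and all 44 passed the filter for low counts (counts scaled to library size as CPM, with 1 CPM or more in 8 of 21 libraries), which left 14012 genes to fit. In every case the 15 OCI-AML3 libraries alone satisfied that filter, which the 6 HEK293T libraries are too few to meet for any gene.

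The libraries were made to follow transcripts, and above all their splicing, when the endoplasmic reticulum (ER) is stressed, and only counts per gene were used here. OCI-AML3, an established line from a human acute myeloid leukaemia, was either untreated (0 h) or exposed for 4 h or 24 h, to DMSO in one arm and to tunicamycin (1 μg/mL) in the other. HEK293T, an established line derived from human embryonic kidney that carries the SV40 large T antigen, received DMSO or tunicamycin for 24 h only. Each of the 7 groups held 3 libraries, and no group received interferon or a virus according to the labels. Tunicamycin blocks N-linked glycosylation, which leaves new ER proteins poorly folded, and DMSO served as its vehicle. Each condition was followed in 1 line of each kind, and the labels number the replicates without saying whether they were separate cultures, so the spread given is that between libraries and may be technical.

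Libraries held 13838466 to 19961798 counts, and a gene without any count could still have a level of up to 0.137 to 0.231 CPM (3 counts over the scaled library size, counting error only). The treatment check gave the direction known for tunicamycin in all 3 comparisons. HSPA5, the ER chaperone BiP, rose by 3.29 ± 0.06 (log2 fold change ± standard error, SE) at 4 h and 3.53 ± 0.06 at 24 h in OCI-AML3 and by 2.7 ± 0.06 in HEK293T. Of 8 myeloid markers, all 8 reached 1 CPM in every untreated library of OCI-AML3, although MPO stood at only 1.52 ± 0.07 CPM (SD, n = 3). In HEK293T, PTPRC and MPO were at 0 and 3 of the 8 reached 1 CPM in every library, namely HOXA9 (127 ± 2.08 CPM in DMSO, against 59.2 ± 7.86 in OCI-AML3), MEIS1 (16 ± 0.384) and CEBPA (12.9 ± 1.25). No library of OCI-AML3 held a count of PAX2 or EPCAM, and of the 5 HEK293T markers 3 reached 1 CPM in every HEK293T DMSO library.

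Interferons are secreted proteins that bind receptors on the cell surface and activate kinases, for type I interferon JAK1 and TYK2. Type I interferon then drives a complex that holds STAT2 and IRF9 to the interferon-stimulated response element (ISRE) in the promoters of target genes, whose products bind viral RNA, block entry and release, degrade RNA or present peptides. Many cells keep a low tonic level of these transcripts without added interferon, and IRF1 and IRF7 can drive part of the same set. The reads come from whole cultures, so fewer cells with a transcript and less of it per cell cannot be told apart.

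The 44 genes covered a wide range of levels in untreated OCI-AML3 cells. Per kilobase of annotated exon, their median was 5.54 CPM against 4.98 CPM for all genes fitted, and 27 of 44 stood above that second value. BST2, which tethers budding virus to the cell surface, was the highest at 412 CPM per kilobase, followed by IFI6 at 123, IFITM2 at 78.3, ISG15 at 71.0 and PSMB8 at 69.4. At the other end stood OASL at 0.975, EPSTI1 at 0.568 and ISG20, a nuclease for single-stranded RNA, at 0.277. Exon lengths were taken over all annotated transcripts of a gene, so genes with long minor transcripts are placed too low in this order.

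**Figure D1:**
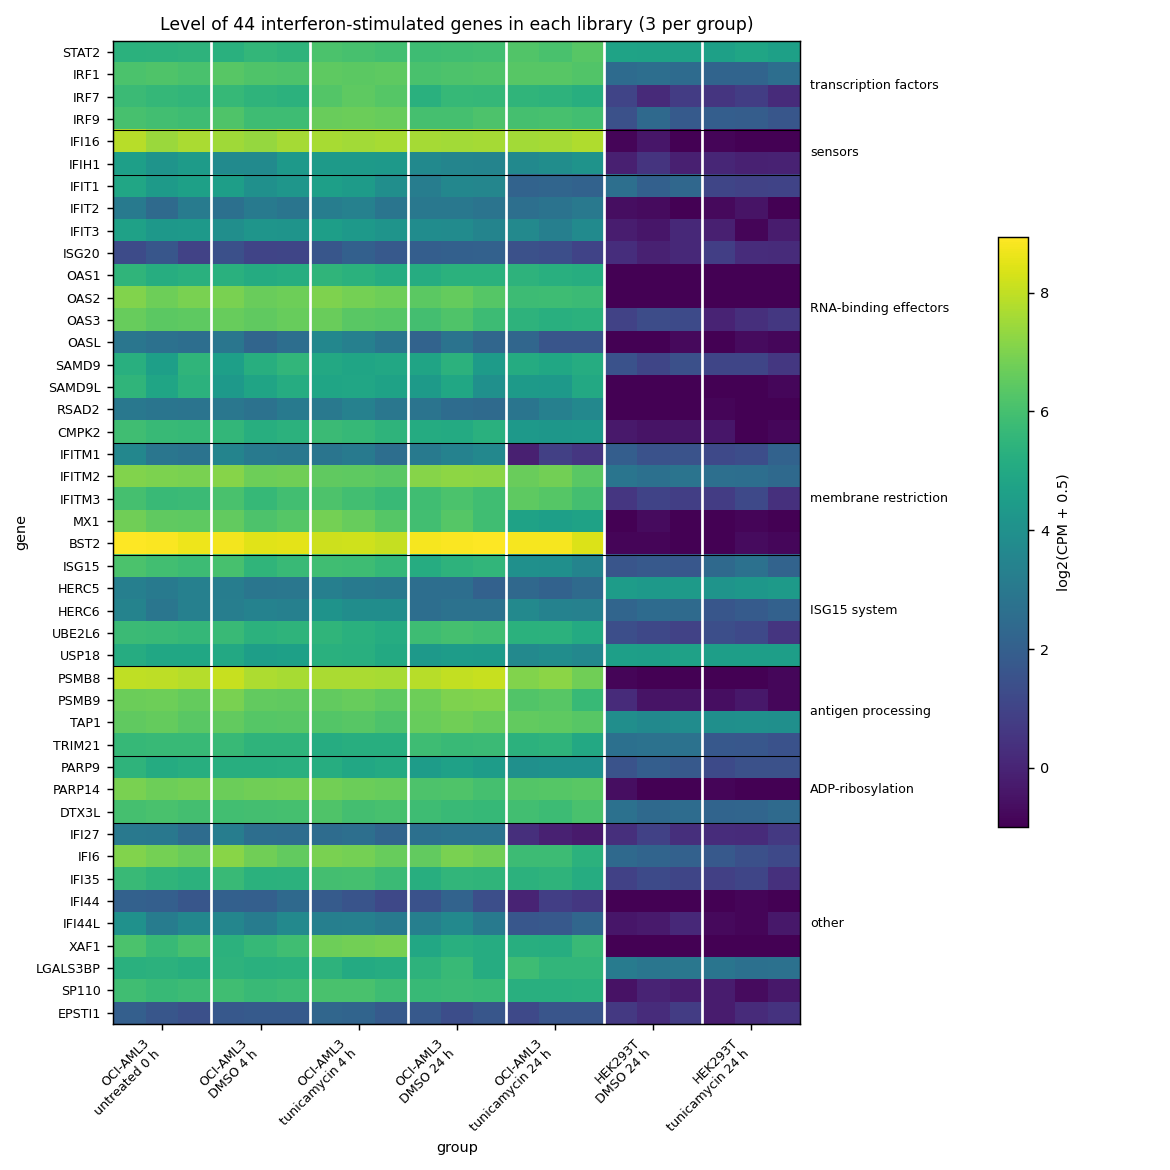
Level of each of the 44 genes (rows, grouped by role) in each of the 21 libraries (columns, 3 per group, replicates 1 to 3 from left to right), as log2(CPM + 0.5). The 6 HEK293T libraries are dark for most genes, though not for STAT2, USP18, HERC5 and TAP1, and within OCI-AML3 the 3 libraries of tunicamycin at 24 h are the darkest for IFI27 and IFITM1.

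The 44 transcripts also varied within groups. In untreated cells replicate 1 was the highest of the 3 libraries for 33 of 44 genes, 75.0%, against 30.2% of all genes fitted. Replicate 1 was highest for 27 of 44 genes in DMSO at 4 h and in tunicamycin at 4 h, 61.4%, against 40.1% and 36.6% of all genes, and in DMSO at 24 h replicate 2 led for 27 of 44, against 29.3% of all genes. In tunicamycin at 24 h no library led, with 14, 15 and 15 genes. The summed level of the 44 genes ranged from 2700 to 3060 CPM in untreated cells, from 2440 to 2860 CPM in DMSO at 4 h, from 2510 to 2800 CPM in tunicamycin at 4 h, from 2490 to 2750 CPM in DMSO at 24 h and from 1980 to 2190 CPM in tunicamycin at 24 h. Only the last of these ranges lay apart from the other 4.

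After 24 h of tunicamycin, 8 of the 44 genes were lower than in DMSO by the criterion used throughout, an adjusted p (Benjamini-Hochberg) no larger than 0.05 in edgeR's quasi-likelihood model together with a log2 fold change beyond 1. They were IFI27, IFITM1, ISG15, IFI44, IFI44L, IFIT1, MX1 and IFI6, between 2.14 and 12.2 times lower, and none of the 44 was higher by that criterion. Among all 14012 genes 2.26% were called lower and 4.05% higher. The selection used this comparison, so nothing is read from that contrast of shares. On the adjusted p alone, 21 of the 44 were lower and 4 higher (STAT2, HERC6, DTX3L and RSAD2), beside 27.7% and 23.5% of all genes. In 21 of the 44 every tunicamycin library lay below every DMSO library and in 5 above, as in 27.8% and 25% of all genes. The median log2 fold change of the 44 was -0.21, with a range of -3.61 to 0.83, and that of all genes was -0.01.

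IFI27 (ENSG00000165949, chr14:94104836-94116695 on GRCh38) encodes a small mitochondrial and nuclear membrane protein and is one of the transcripts most used to read out interferon exposure. Its level was 5.88, 6.46 and 6.31 CPM in the DMSO libraries at 24 h and 0.773, 0.447 and 0.327 CPM with tunicamycin. The groups did not overlap, and the log2 fold change was -3.61 ± 0.32. At 4 h the levels were 8.84, 5.50 and 5.32 CPM in DMSO and 5.24, 5.63 and 4.28 CPM with tunicamycin, which overlapped.

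IFITM1 (ENSG00000185885, chr11:310041-315272) keeps enveloped viruses from fusing at the cell surface. With DMSO for 24 h it stood at 7.89, 10.1 and 11.8 CPM, and with tunicamycin at 0.422, 1.34 and 0.98 CPM, so that the groups lay apart (-3.43 ± 0.35). Its neighbours on chromosome 11 took other courses. IFITM2, which starts upstream and ends 643 bases before IFITM1, fell from 140, 152 and 145 CPM to 99.8, 111 and 83.4 CPM, a change of -0.57 ± 0.10. IFITM3, which blocks entry from endosomes and lies on the opposite strand, stood at 58.8, 68.3 and 59.1 CPM in DMSO and at 88.7, 78.6 and 61.9 CPM with tunicamycin (0.30 ± 0.14, overlapping). Of the transcript stretches of 96 bases in IFITM1, 21.4% also occur in another annotated gene, in IFITM3 19.9% and in IFITM2 8%, so reads there were divided between genes by RSEM's estimate.

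ISG15 (ENSG00000187608, chr1:1001138-1014540) is a ubiquitin-like protein that is joined to other proteins or secreted. It fell from 34.6, 42.6 and 45.7 CPM to 15.2, 15 and 10.8 CPM at 24 h (-1.59 ± 0.15). IFIT1 (ENSG00000185745, chr10:89392546-89406487) binds viral RNA whose cap lacks methyl groups, and it stood at 8.82, 11.6 and 11.4 CPM in DMSO and at 3.93, 4.17 and 3.81 CPM with tunicamycin (-1.42 ± 0.22). Its cluster neighbours stood near 0, IFIT2 at -0.13 ± 0.22 and IFIT3 at -0.13 ± 0.17, both with overlapping libraries.

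MX1 (ENSG00000157601, chr21:41420020-41470071), a dynamin-like GTPase that traps viral nucleocapsids, fell from 60.0, 79.1 and 59.3 CPM to 25.7, 23.7 and 25.7 CPM (-1.40 ± 0.14). IFI6 (ENSG00000126709, chr1:27666064-27672212) resides in the ER and mitochondria and belongs to the family of IFI27. It fell from 92.4, 123 and 109 CPM to 55.8, 55.0 and 41.1 CPM (-1.10 ± 0.15). Without replicate 2 of DMSO at 24 h its change was -0.95 and without replicate 3 of tunicamycin at 24 h -0.92, both short of the fold threshold. The paralogues IFI44 and IFI44L, adjacent on chromosome 1, fell together. IFI44L went from 9.32, 12.1 and 7.85 CPM to 2.74, 2.90 and 4.41 CPM (-1.52 ± 0.24). IFI44 was at a low level, 2.37, 3.93 and 2.08 CPM in DMSO against 0.492, 1.27 and 1.03 CPM (-1.58 ± 0.34).

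**Figure D2:**
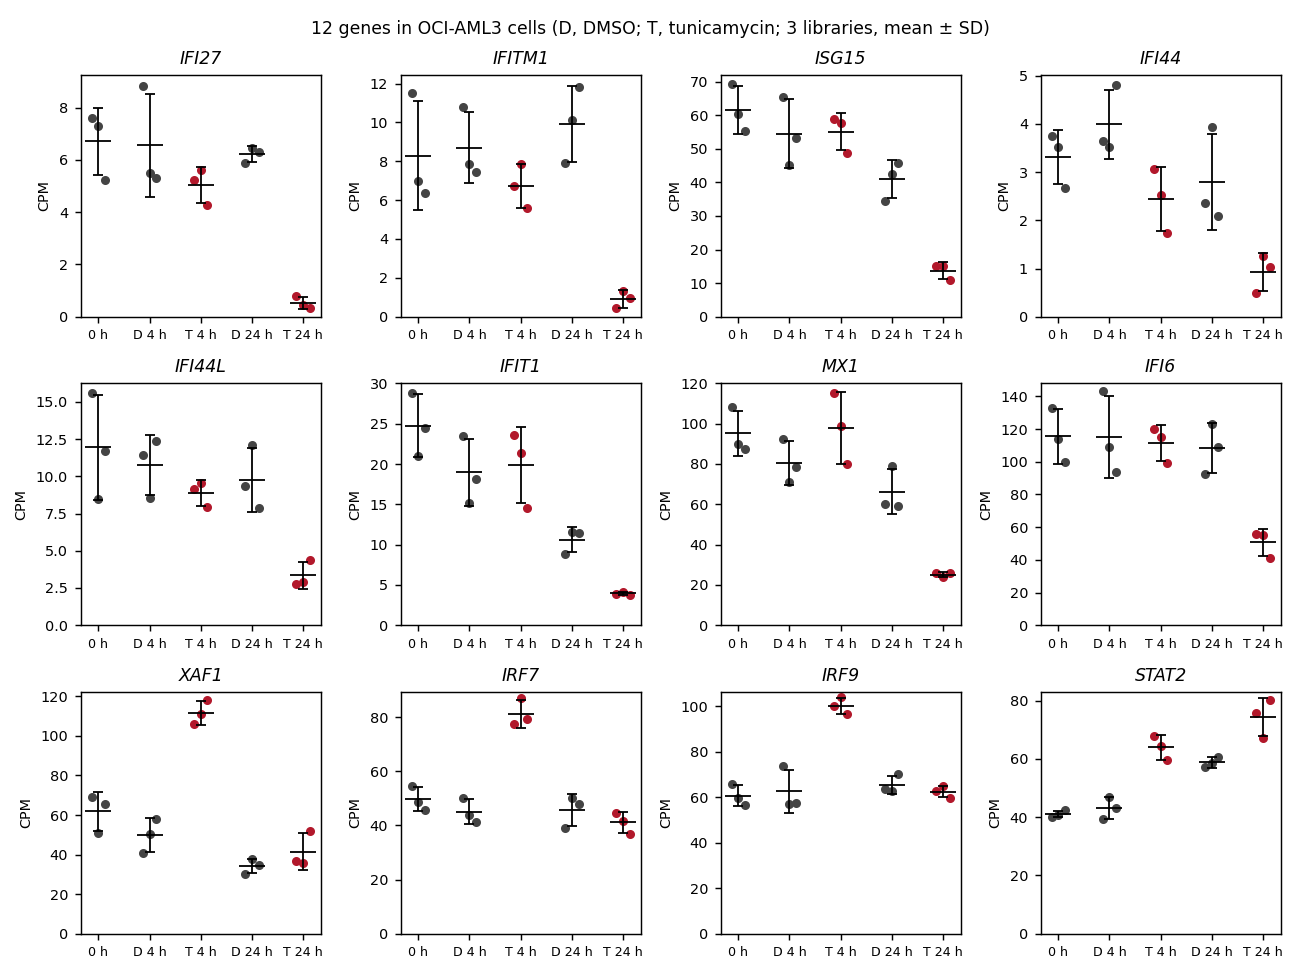
Level in CPM (linear axes from 0) in each OCI-AML3 library of the 8 genes called lower at 24 h of tunicamycin and of XAF1, IRF7, IRF9 and STAT2; points are libraries, lines the mean and SD of 3, red with tunicamycin. In the first 8 panels every library of tunicamycin at 24 h lies below every DMSO library of that time, and XAF1, IRF7 and IRF9 peak at 4 h of tunicamycin.

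Just outside the fold threshold at 24 h was PSMB8 at -0.99 ± 0.11, a catalytic subunit of the immunoproteasome, and ISG20 at -0.90 ± 0.26. PSMB8 went from 233, 259 and 276 CPM to 132, 146 and 108 CPM, and it passed the threshold in limma voom, in the fit with replicate numbers as a block and without a count filter (-1.01). Just inside were IFI6 and MX1.

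The other members of the antigen presentation group also lay lower at 24 h of tunicamycin in every library. PSMB9, the partner subunit of PSMB8, changed by -0.82 ± 0.14, and TAP1, which pumps peptides into the ER and lies within the annotated span of PSMB9 on the opposite strand, by -0.23 ± 0.08. TRIM21, a ubiquitin ligase that binds antibody inside cells, changed by -0.49 ± 0.10. At 4 h the 4 genes lay between -0.12 and -0.35.

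The 12 RNA-binding and RNA-degrading effectors spread from -1.42 (IFIT1) to 0.77 (RSAD2) at 24 h. Members of the OAS family, which make 2-5A to switch on RNase L, parted. OAS2 fell from 85.8, 94.7 and 79.9 CPM to 54.9, 57.3 and 54.5 CPM (-0.65 ± 0.10), and OAS3 from 61.9, 72.1 and 54.8 CPM to 41.8, 37.5 and 40.4 CPM (-0.66 ± 0.10). OAS1, in the same cluster on chromosome 12, stood at 34.9, 40.4 and 39.9 CPM and 41.9, 38.3 and 36.1 CPM (0.01 ± 0.10).

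RSAD2 (viperin), which makes a chain-terminating nucleotide, and CMPK2, a mitochondrial nucleotide kinase, start next to each other on opposite strands of chromosome 2, and their annotated spans overlap. RSAD2 went from 6.53, 5.13 and 4.93 CPM to 6.68, 9.61 and 11.9 CPM (0.77 ± 0.20), while CMPK2 fell from 33.6, 32.8 and 38.6 CPM to 20.4, 18.5 and 19 CPM (-0.85 ± 0.12). Stretches that both genes share make up 4.27% of RSAD2 and 5.73% of CMPK2, and the sources used here do not say whether counting used the strand. A second pair of this kind, PARP9 and DTX3L, lies on chromosome 3, and the products form a complex that modifies histones and other proteins. PARP9 changed by -0.53 ± 0.10 and DTX3L by 0.21 ± 0.08. PARP14, the third gene of the ADP-ribosylation group, was at 0.20 ± 0.09.

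In the ISG15 system the members differed in direction at 24 h. UBE2L6, the enzyme that carries ISG15 to its targets, fell from 56.6, 64.4 and 57.8 CPM to 39.8, 40.6 and 33.3 CPM (-0.66 ± 0.12). USP18, which removes ISG15 and restrains the interferon receptor, fell from 20.2, 21.8 and 21.3 CPM to 12.4, 14.1 and 12 CPM (-0.72 ± 0.11). The ligase HERC5 was at -0.13 ± 0.16, with overlapping libraries. Its paralogue HERC6 was higher with tunicamycin, 12.2, 10.2 and 9.91 CPM against 5.59, 6.26 and 6.24 CPM (0.83 ± 0.15).

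Markers of cell type moved alongside these values at 24 h. COL1A2, a collagen gene of the list of other cell types, fell from 22.0 ± 1.90 to 6.26 ± 1.05 CPM (SD, n = 3), while CD3E, MS4A1 and HBB were at 0 in both groups. The summed level of that list of 6 markers ranged from 22.0 to 25.6 CPM in DMSO and from 5.88 to 8.22 CPM with tunicamycin. Of the 8 myeloid markers 4 rose on the adjusted p (edgeR), ANPEP the most, by 1.37 ± 0.13 (adjusted p = 1.4e-08), and SPI1 fell, by 0.44 ± 0.10 on the log2 scale (adjusted p = 0.00077). The sum of that list of 8 was 1640 to 1660 CPM in DMSO and 1620 to 1800 CPM with tunicamycin. The part of any change in cell make-up in the fall of the 8 genes was not tested.

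The promoters of the 8 genes were read for the letters of the ISRE core (GAAA, any 2 bases, GAAA) and for the gamma-activated site (TTC, any 3 bases, GAA), an element of interferon-γ targets. Both were searched on both strands of RefSeq windows of 300 bases on GRCh38.p14, from 250 bases before a gene's start to 50 after it. Windows were given for 38 of the 44 genes, and not for IFIT2, OAS2, IRF7, OASL, USP18 and IFITM2. The ISRE core was found for 25 of these 38 genes, 65.8%, against 4.38% of all 27305 genes with windows (3.57% of 35116 windows). The gamma-activated site was found for 13 of 38, 34.2%, against 9.38% of genes and 7.66% of windows. All 8 genes called lower at 24 h held the ISRE core, as did 17 of the other 30. That split rests on a comparison used for the selection, so nothing is read from it. A match is a description of the letters and was not tested for binding. The match nearest the start before it is shown for each of the 8. The 10 bases of the core are in capitals, with 8 bases on each side, read 5′ to 3′ on the gene's strand.
IFI27: gtttcctgGAAAATGAAAcctatctc
IFITM1: aacagcagGAAATAGAAActtaagag
ISG15: gggaaaggGAAACCGAAActgaagcc
IFI44: acactgagTTTCAGTTTCctttctct
IFI44L: ctagtgagGAAAAAGAAAgttagtgg
IFIT1: ctttccccTTTCGGTTTCcctaggtt
MX1: tcactctgTTTCTCTTTCcgtgaata
IFI6: agagtgcaGAAATAGAAActccgaca

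These lie at chr14:94110633-94110658 for IFI27, chr11:313992-314017 for IFITM1, chr1:1013382-1013407 for ISG15, chr1:78649763-78649788 for IFI44, chr1:78620367-78620392 for IFI44L, chr10:89392512-89392537 for IFIT1, chr21:41431846-41431871 for MX1 and chr1:27672268-27672293 for IFI6. The core ended between 9 bases (IFI44) and 187 bases (MX1) before the start. In IFI44, IFIT1 and MX1 it reads on the opposite strand, with TTTC on either side of the 2 free bases. The sequence of 26 bases shown for IFI44L occurs a second time in its window, at chr1:78620276-78620301. In ISG15 a further match overlaps the one shown, as the longer stretch of capitals in its window shows.

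The whole 250 bases before the start are given for ISG15 (chr1:1013247-1013496), IFITM1 (chr11:313790-314039) and XAF1 (chr17:6755197-6755446), all on the plus strand, to set 2 genes that were lower at 24 h beside the gene that was higher at 4 h. Capitals mark ISRE cores. These letters do not occur in the window of XAF1, which says nothing of sites elsewhere. The 3 genes were picked for display, and core and direction did not always go together. The 8 genes called lower at 24 h held the core, but so did RSAD2, which was higher then (0.77). PSMB9 (-0.82) and UBE2L6 (-0.66) were lower at 24 h and had no core in their windows.
ISG15: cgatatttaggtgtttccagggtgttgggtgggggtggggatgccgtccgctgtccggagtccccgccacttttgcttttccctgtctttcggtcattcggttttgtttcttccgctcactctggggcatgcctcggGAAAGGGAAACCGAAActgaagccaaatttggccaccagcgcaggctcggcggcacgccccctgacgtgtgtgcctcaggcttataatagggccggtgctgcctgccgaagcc
IFITM1: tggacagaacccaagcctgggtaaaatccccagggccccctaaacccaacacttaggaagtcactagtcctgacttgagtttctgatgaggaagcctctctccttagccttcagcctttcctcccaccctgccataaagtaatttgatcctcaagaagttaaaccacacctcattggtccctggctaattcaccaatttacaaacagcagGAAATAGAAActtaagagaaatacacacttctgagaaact
XAF1: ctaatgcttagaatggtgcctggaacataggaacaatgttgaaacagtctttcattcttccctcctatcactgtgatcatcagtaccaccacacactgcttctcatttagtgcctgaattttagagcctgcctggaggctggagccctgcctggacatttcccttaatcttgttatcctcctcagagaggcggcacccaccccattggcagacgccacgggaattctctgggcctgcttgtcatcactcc

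At 4 h of tunicamycin the picture differed, with XAF1 the 1 gene of 44 called higher and none called lower, beside 3.45% and 1.47% of all genes. On the adjusted p alone 11 were higher and 3 lower (IFITM2, BST2 and TRIM21), beside 18.5% and 18.9% of all genes. In 10 of the 44 every tunicamycin library lay above every DMSO library and in 5 below, as in 22.9% and 23.4% of all genes. The median of the 44 was 0.09 and that of all genes -0.02, and it was 0.002 without tunicamycin replicate 1 and 0.183 without DMSO replicate 1. Of the 8 genes lower at 24 h, 7 overlapped between the groups at 4 h. The exception was IFI44, at 3.65, 3.52 and 4.81 CPM in DMSO and 3.07, 2.52 and 1.74 CPM with tunicamycin (-0.70 ± 0.28). Of the 8 myeloid markers PTPRC (0.34 ± 0.09, adjusted p = 0.0045), MEIS1 (0.28 ± 0.07, 0.0044) and SPI1 (0.25 ± 0.10, 0.049) rose, while CEBPA (-0.50 ± 0.08, 3.5e-05) and CD33 (-0.39 ± 0.09, 0.0016) fell, and their sum ranged from 1230 to 1260 CPM in DMSO and from 1150 to 1210 CPM with tunicamycin. COL1A2 fell by 0.35 ± 0.13 on the log2 scale (adjusted p = 0.033), and the sum of the 6 markers of other cells ranged from 23.1 to 29.4 CPM and from 19.9 to 22.2 CPM. Their part in the members' values was not tested.

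XAF1 (ENSG00000132530, chr17:6755447-6775647), which counteracts the apoptosis inhibitor XIAP, stood at 40.9, 50.2 and 58.0 CPM in DMSO at 4 h and at 106, 111 and 118 CPM with tunicamycin, without overlap (1.17 ± 0.14). At 24 h it stood at 30.2, 37.6 and 35.0 CPM and 36.7, 35.7 and 52.1 CPM, which overlapped (0.28 ± 0.15). Of its stretches of 96 bases 31.5% also lie in another gene's transcripts. The gene that shares the most is PRAL, a non-coding gene on the opposite strand at its end. PRAL had 29.7, 35.5 and 37.3 CPM in DMSO at 4 h and 72.7, 79.4 and 81.0 CPM with tunicamycin, a rise of 1.18 ± 0.15. It changed by 0.38 ± 0.16 at 24 h of tunicamycin and by -0.58 ± 0.16 between DMSO at 24 h and 4 h. Whether the counting used strand is not given in the sources used here, so reads from the shared stretches may have gone to either gene, while the other stretches of XAF1 occur in no other annotated gene.

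The 4 transcription factors of the interferon signal were among those 10 at 4 h, and none of them passed the fold threshold. IRF7, the factor that induces interferon-α genes, was the one just outside the fold threshold. It rose from 50.2, 44 and 41.1 CPM to 77.4, 86.9 and 79.2 CPM (0.85 ± 0.12). IRF9, the DNA-binding partner of STAT2, went from 73.7, 57.2 and 57.4 CPM to 100, 104 and 96.7 CPM (0.68 ± 0.12). STAT2 went from 39.4, 46.8 and 43.0 CPM to 68.0, 64.5 and 59.5 CPM (0.57 ± 0.08). IRF1 went from 80.7, 73.0 and 71.4 CPM to 88.9, 86.2 and 86.8 CPM (0.22 ± 0.07). Of the stretches of 96 bases in IRF9 17.3% also occur in another annotated gene, and in IRF1 16.05%, on either strand.

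By 24 h the 4 had parted. STAT2 stood at 57.2, 58.5 and 60.7 CPM in DMSO and at 75.7, 67.3 and 80.3 CPM with tunicamycin (0.34 ± 0.08), and IRF1 at 66.7, 69.9 and 73.5 CPM against 80.3, 81.0 and 74.3 CPM (0.17 ± 0.07). IRF7 and IRF9 overlapped between the groups, at -0.16 ± 0.12 and -0.07 ± 0.12. The difference between the effects at 24 h and at 4 h was -1.01 ± 0.16 for IRF7 and -0.75 ± 0.17 for IRF9, against -0.23 ± 0.11 for STAT2 and -0.05 ± 0.10 for IRF1.

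Further values at 4 h above DMSO in every library were those of IFI35 (0.43 ± 0.12), ISG20, HERC6, USP18 (0.48 ± 0.10) and the RNA sensor IFIH1 (MDA5). HERC6 went from 8.90, 9.98 and 9.56 CPM to 16.5, 14.2 and 14 CPM (0.65 ± 0.14), ISG20 from 2.19, 1.54 and 1.60 CPM to 2.62, 3.58 and 2.90 CPM (0.78 ± 0.26), and IFIH1 from 12.8, 13.1 and 19.6 CPM to 20.5, 20.7 and 20.2 CPM (0.43 ± 0.15). BST2 went the other way, from 433, 360 and 364 CPM to 287, 296 and 267 CPM (-0.44 ± 0.10). The DNA sensor IFI16 was among the flattest, at 0.11 ± 0.10 at 4 h and 0.07 ± 0.10 at 24 h.

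The largest differences between the effects at 24 h and at 4 h were in IFI27 (-3.25 ± 0.40), IFITM1 (-3.07 ± 0.44), MX1 (-1.68 ± 0.19), ISG20 (-1.68 ± 0.37), ISG15 (-1.61 ± 0.20) and IFIT1 (-1.49 ± 0.28). HERC6 differed by 0.18 ± 0.21, with higher levels at both times. Of the members not yet described, SP110, a nuclear body protein, fell in every library at 24 h, to 38.3 ± 0.395 from 52.3 ± 1.58 CPM (-0.45 ± 0.09), and overlapped at 4 h (0.20 ± 0.09). OASL, an OAS relative without 2-5A synthesis, overlapped at both times, with 0.77 ± 0.25 at 4 h and -0.65 ± 0.28 at 24 h. SAMD9, SAMD9L, LGALS3BP and EPSTI1 overlapped at both times too, between -0.24 and 0.38 at 4 h and between -0.13 and 0.20 at 24 h. SAMD9 and SAMD9L, neighbours on chromosome 7 that restrain poxviruses, varied widely among DMSO libraries, at 35.5 ± 11.1 and 27.6 ± 7.75 CPM at 4 h.

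**Figure D3:**
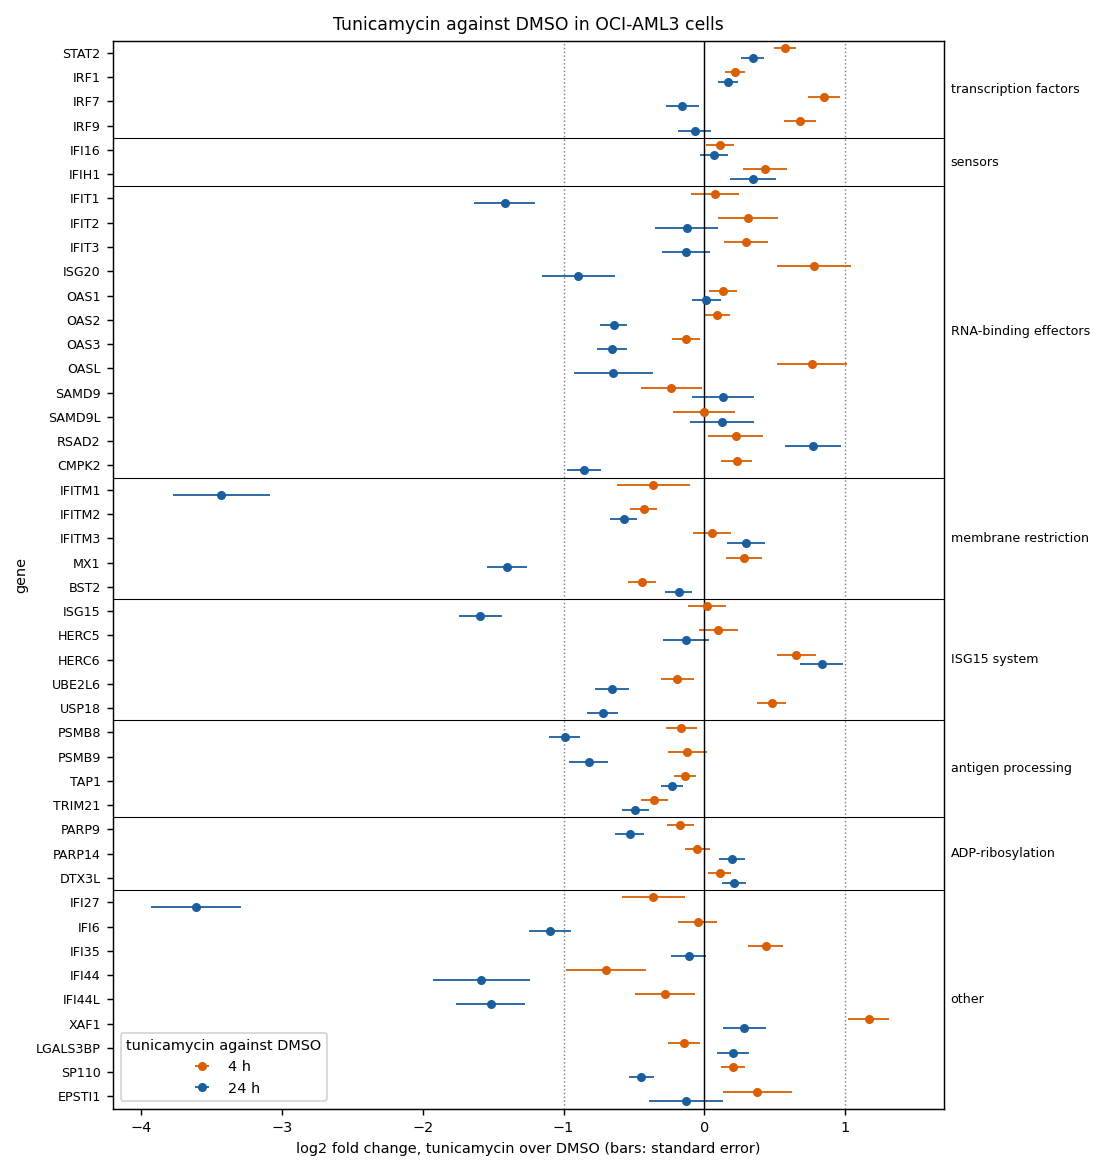
Log2 fold change of tunicamycin over DMSO in OCI-AML3 cells for each of the 44 genes, grouped by role, at 4 h (orange) and 24 h (blue), with the standard error of the fit; dotted lines mark the fold threshold. The transcription factors lie right of 0 at 4 h, the antigen presentation genes left of 0 at both times, and 8 genes pass the left line at 24 h.

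Culture in DMSO alone also came with differences between 4 h and 24 h. Of the 44 genes ISG20 was called higher at 24 h and none lower, beside 3.48% and 0.664% of all genes. On the adjusted p alone 6 were higher and 12 lower, beside 21% and 21.6%. The libraries did not overlap for 7 genes that were higher and 12 that were lower, as for 22.7% and 22.9% of all genes. The median was -0.12, against -0.02 for all genes. ISG20 stood at 2.19, 1.54 and 1.60 CPM at 4 h and at 3.37, 3.66 and 3.77 CPM at 24 h (1.02 ± 0.26), close to the threshold. Its change was 0.90 with library sizes without TMM and 0.999 with no count filter. Without replicate 2 or 3 at 4 h it was 0.93 or 0.95, and without replicate 3 at 24 h 0.99. All of these fell short of the fold threshold.

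Differences with culture time were spread over several roles. IFIT1, next to the threshold, fell from 23.5, 15.2 and 18.2 CPM to 8.82, 11.6 and 11.4 CPM (-0.84 ± 0.18), but IFI27 (-0.07 ± 0.22), IFITM1 (0.19 ± 0.25) and IFI6 (-0.10 ± 0.14) overlapped. The 3 ADP-ribosylation genes were all lower in every library. PARP9 went from 37.4, 36.6 and 38.3 CPM to 21.8, 25.1 and 21.9 CPM (-0.70 ± 0.10), PARP14 from 103, 110 and 112 CPM to 71.5, 72.6 and 63.8 CPM (-0.64 ± 0.09), and DTX3L changed by -0.22 ± 0.08. HERC5 (-0.63 ± 0.15), HERC6 (-0.65 ± 0.15), OAS3 (-0.61 ± 0.10) and XAF1 (-0.54 ± 0.15) were of like size. STAT2 was higher at 24 h, by 0.45 ± 0.08, and so was UBE2L6, by 0.39 ± 0.12. KRT18, an epithelial keratin of the HEK293T marker list, rose with culture time too, from 0.461 ± 0.158 to 0.925 ± 0.208 CPM (1.01 ± 0.31, adjusted p = 0.019), and stood at 1.81 ± 0.431 CPM at 24 h of tunicamycin (0.94 ± 0.24, adjusted p = 0.0022). Of the 8 myeloid markers 2 rose on the adjusted p and none fell, CEBPA by 0.59 ± 0.08 (adjusted p = 5.3e-06) and SPI1 by 0.43 ± 0.10 (adjusted p = 0.0012). Their sum ranged from 1230 to 1260 CPM in DMSO at 4 h and from 1640 to 1660 CPM at 24 h. The part of these markers in the members' values was not tested. The DMSO libraries at each time also serve as the reference for tunicamycin at that time, so the 3 sets of values share samples.

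Against untreated cells, DMSO at 24 h had 1 member called lower, IFIT1, and none called higher, beside 0.607% and 3.58% of all genes. Without the fold criterion 2 were higher and 16 lower, beside 21.4% and 22.7%. KRT18 was 1.15 ± 0.32 higher than at 0 h (adjusted p = 0.0071). Of the 8 myeloid markers CEBPA (0.47 ± 0.08, adjusted p = 7e-05) and SPI1 (0.38 ± 0.10, 0.0031) were higher and HOXA9 (-0.30 ± 0.08, 0.0056) lower. Their sum ranged from 1300 to 1340 CPM at 0 h and from 1640 to 1660 CPM in DMSO at 24 h. The part of these markers in the members' values was not tested. IFIT1 was at 28.8, 21 and 24.5 CPM at 0 h, a change of -1.23 ± 0.18, above each of the DMSO libraries at 24 h. The median of the 44 was -0.13 (all genes -0.01). DMSO for 4 h against 0 h gave no call, in either direction, for any of the 14012 genes in edgeR, beside 1160 genes at an unadjusted p below 0.05, 8 of them members. The shares of all genes called were 0.0% higher and 0.0% lower. limma voom and DESeq2 also gave 0 calls, and without a count filter edgeR gave 21 higher and 19 lower among 31899 genes, none of them a member. The smallest adjusted p of a member in edgeR was 0.48, and over all alternatives it was 0.0137, for SAMD9L at a fold short of the threshold. Members lay between -0.45 and 0.27 and a median of -0.10.

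In HEK293T cells the 44 genes ran from no count at all to 25.9 CPM (STAT2, mean in DMSO). In DMSO 12 of the 44 had 3 counts or fewer in every library, 27.3%, against 4.58% of all genes fitted, and OAS1, OAS2 and XAF1 had no count in any of the 6 HEK293T libraries. Only 18 genes reached 1 CPM in every HEK293T library, 40.9%, against 87.9% of all genes. The summed level of the 44 was 152 to 159 CPM in DMSO and 134 to 141 CPM with tunicamycin. Per kilobase of exon the median in HEK293T DMSO was 0.218 CPM for the 44 and 4.62 CPM for all genes. All 44 were kept through OCI-AML3, and a gene seen in HEK293T alone could not be kept. The same filter held for all genes fitted, but 87.9% of those reached 1 CPM in every HEK293T library, so they do not measure its part here. The part of the filter in the members' low levels in HEK293T was not tested.

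Between the lines in DMSO at 24 h, 41 members were called lower in HEK293T and 1 higher, beside 24.9% and 20.3% of all genes. The median log2 fold change of the 44 was -4.70 (-4.64 with the 12 genes set to the bound that 3 counts per library allow), and that of all genes -0.01. BST2, with 444, 465 and 487 CPM in OCI-AML3 and 0.0513, 0.0535 and 0 CPM in HEK293T, was at least 3090 times lower. For PSMB8 that bound was 1700 times, for OAS2 577 times, for PARP14 460 times, for MX1 439 times and for XAF1 227 times.

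HERC5, USP18 and HERC6 lay nearest to or above equal levels. HERC5 was higher in HEK293T, at 22.0, 19.5 and 20.6 CPM against 5.45, 5.46 and 3.77 CPM (2.07 ± 0.14). USP18 stood at 24.0, 23.4 and 25.5 CPM against 20.2, 21.8 and 21.3 CPM (0.20 ± 0.10), and 16% of its stretches occur in another annotated gene. HERC6 was at 4.21, 5.03 and 4.89 CPM against 5.59, 6.26 and 6.24 CPM (-0.36 ± 0.16). All 3 belong to the ISG15 system, in which ISG15 itself stood at 2.56, 2.94 and 2.7 CPM in HEK293T against 34.6, 42.6 and 45.7 CPM. UBE2L6, also of that system, stood at 1.76 ± 0.323 CPM in HEK293T against 59.6 ± 4.22 CPM (SD, n = 3). After HERC5, USP18 and HERC6, the nearest to equal levels were STAT2 (-1.18 ± 0.08), IFIT1 (-1.20 ± 0.20), EPSTI1 (-1.34 ± 0.28) and IFITM1 (-1.87 ± 0.28).

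**Figure D4:**
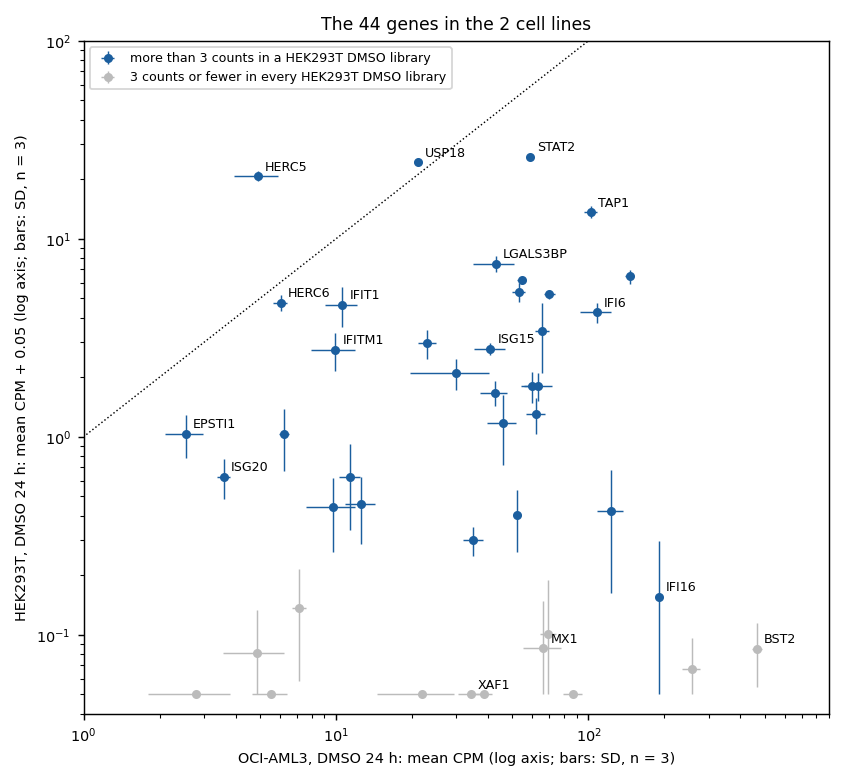
Mean level of the 44 genes in DMSO at 24 h, OCI-AML3 (x axis) against HEK293T (y axis, with 0.05 CPM added so that zeros can be drawn), both log axes in CPM with the SD of 3 libraries; grey points had 3 counts or fewer in every HEK293T DMSO library. HERC5 and USP18 lie above the dotted line of equal levels and the other 42 genes below it.

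Tunicamycin in HEK293T came with 3 members called lower, IFIT1, OAS3 and TRIM21, and none called higher, beside 0.55% and 1.58% of all genes. On the adjusted p alone 6 were lower and 1 higher, beside 13.1% and 12.6%, and the libraries did not overlap for 8 that were lower and 2 that were higher, as for 25.7% and 23.4% of all genes. For 11 of the 44 both groups held 3 counts or fewer in every library and no fold is given, and the median of the other 33 was -0.28 (-0.21 over all 44 fitted values). TRIM21 went from 5.85, 6.21 and 6.26 CPM to 2.83, 2.78 and 2.35 CPM (-1.19 ± 0.15), the closest to the threshold of the 3 called. IFIT1 went from 5.74, 3.59 and 4.48 CPM to 1.62, 1.42 and 1.48 CPM (-1.61 ± 0.27), and OAS3 from 1.44, 1.98 and 1.87 CPM to 0.505, 0.763 and 1.01 CPM (-1.25 ± 0.28). Other measures moved in these libraries as well. Mitochondrial transcripts took 2.48 to 2.52% of the counts in DMSO and 2.75 to 2.82% with tunicamycin, and the 10 most abundant genes 4.17 to 4.34% and 4.87 to 4.91%. In OCI-AML3 the mitochondrial shares overlapped at both times, and the 10 most abundant genes took 4.58 to 4.84% in DMSO and 4.96 to 5.07% with tunicamycin at 4 h, and 5.82 to 5.95% and 6.13 to 6.21% at 24 h. Of the myeloid list HOXA9 fell by 0.48 ± 0.08 and MEIS1 by 0.40 ± 0.08 on the log2 scale (adjusted p = 9.3e-05 and 0.00091), and none rose. The sum of the 5 HEK293T markers ranged from 158 to 162 CPM in DMSO and from 190 to 202 CPM with tunicamycin, with NEFM, a neurofilament gene outside the fit, at 107 ± 2.75 and 135 ± 6.58 CPM. The sum of the 6 markers of other cells ranged from 11.9 to 13.6 CPM and from 6.71 to 6.97 CPM, with COL1A1, also outside the fit, at 11.7 ± 0.843 and 6.04 ± 0.331 CPM, and CD3E, MS4A1, COL1A2 and HBB at 0. Their part in the members' values was not tested.

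Genes lowered at 24 h in OCI-AML3 took several courses in HEK293T. IFI6 went from 4.72, 4.12 and 3.75 CPM to 2.88, 2.18 and 1.81 CPM (-0.84 ± 0.27). ISG15 went up, from 2.56, 2.94 and 2.7 CPM to 4.80, 5.99 and 3.96 CPM (0.86 ± 0.22). IFI27 (-0.28 ± 0.35) and IFITM1 (-0.10 ± 0.32) overlapped between the groups, at levels below 4 CPM. The difference between the effects in HEK293T and OCI-AML3 at 24 h was 3.33 ± 0.51 for IFI27, 3.33 ± 0.48 for IFITM1, 2.45 ± 0.27 for ISG15 and -0.19 ± 0.35 for IFIT1.

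The rest of the interferon pathway was read from lists of other genes, tested with edgeR over all genes. The 9 interferon genes listed were IFNA1, IFNB1, IFNE, IFNK, IFNW1, IFNG and IFNL1 to IFNL3, and other interferon-α genes were not read. Of the 9, 6 had no count in any library. No library held more than 4 counts over the 9, a count that IFNB1 and IFNE reached. The 5 receptor chains that were fitted gave no call in the 3 tunicamycin comparisons or between the DMSO times. Without the fold criterion 1 rose and 3 fell at 4 h of tunicamycin, beside 18.5% and 18.9% of all genes. IFNGR1 rose by 0.47 ± 0.10 (adjusted p = 0.00076), while IFNAR2 fell by 0.48 ± 0.07, IFNGR2 by 0.46 ± 0.10 and IFNAR1 by 0.31 ± 0.11 on the log2 scale (4.7e-06, 0.00075 and 0.026). At 24 h 2 rose and none fell, beside 23.5% and 27.7% of all genes, namely IFNAR1 by 0.41 ± 0.11 (adjusted p = 0.0026) and IFNGR1 by 0.37 ± 0.10 (0.0048). Between DMSO at 24 h and 4 h IFNGR2 rose by 0.74 ± 0.10 (2.6e-06) and IL10RB, a chain of the interferon-λ receptor, by 0.62 ± 0.07 (8.8e-07).

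Of 14 signalling genes 1 was called between DMSO at 24 h and 4 h, SOCS1, a feedback inhibitor of JAK kinases, at 1.16 ± 0.30 (adjusted p = 0.0039), and none with tunicamycin. On the adjusted p alone 9 rose and 2 fell between these DMSO times (21% and 21.6% of all genes), with STAT3 up by 0.53 ± 0.08 (adjusted p = 9.6e-06), and 2 rose and 6 fell at 24 h of tunicamycin (23.5% and 27.7% of all genes). JAK1 rose by 0.40 ± 0.06 (adjusted p = 2.3e-05), while IRF5 fell by 0.70 ± 0.09 and IRF8 by 0.63 ± 0.07 on the log2 scale (7.1e-07 and 1.4e-07). Of 9 fitted nucleic acid sensing genes none was called in OCI-AML3 with tunicamycin or between the DMSO times, and 1, DHX58, was called lower with tunicamycin in HEK293T, at 0.798 ± 0.34 and 0.287 ± 0.201 CPM (-1.5 ± 0.40, adjusted p = 0.0078). Without the fold criterion 4 rose and 2 fell at 4 h of tunicamycin, and 1 rose and 2 fell at 24 h, beside 18.5% and 18.9% of all genes at 4 h and 23.5% and 27.7% at 24 h. DHX58, a regulator of RIG-I, rose by 0.71 ± 0.13 at 4 h (adjusted p = 0.00014) and STING1 by 0.89 ± 0.06 at 24 h (adjusted p = 4.8e-11). MYD88, the adaptor of most Toll-like receptors, fell by 0.39 ± 0.06 at 4 h and 0.36 ± 0.06 at 24 h on the log2 scale (adjusted p = 4.5e-05 and 7.4e-05).

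Of 55 other interferon-stimulated genes that were fitted, 2 were called higher and none lower at 4 h of tunicamycin, 1 higher and none lower at 24 h, and 2 higher and none lower in HEK293T, beside 3.45% and 1.47%, 4.05% and 2.26%, and 1.58% and 0.55% of all genes. APOL6, an apolipoprotein L, went from 51.1 ± 3.39 to 160 ± 1.54 CPM at 4 h (1.65 ± 0.09, adjusted p = 3e-12) and from 42.9 ± 4.17 to 97.9 ± 11.8 CPM at 24 h (1.19 ± 0.10, adjusted p = 1.1e-09). TRIM5, which disrupts retroviral capsids, went from 24.4 ± 1.97 to 63.7 ± 3.31 CPM at 4 h (1.39 ± 0.11, adjusted p = 6.1e-10), and from 4.27 ± 0.78 to 9.54 ± 1.62 CPM in HEK293T (1.14 ± 0.14, adjusted p = 2.3e-06). The second call in HEK293T was again APOL6, at 0.015 ± 0.026 and 0.197 ± 0.127 CPM. It rests on 0, 0 and 1 counts in DMSO and 1, 5 and 4 with tunicamycin and has no usable fold. The median of the 55 was 0.05 at 4 h and 0.01 at 24 h. CXCL11, a chemokine, was the 1 gene of the list called lower at 24 h against 4 h of DMSO (-1.03 ± 0.40, adjusted p = 0.043), at levels of 0.68 ± 0.258 and 1.43 ± 0.569 CPM.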

How the data were processed

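RNA of 21 libraries was measured, 3 in each of 7 groups named by the labels. Polyadenylated RNA was sequenced as read pairs. Per the study's methods the authors trimmed reads (seqtk), aligned them with STAR to GRCh38, and used RSEM with an Ensembl annotation. The authors deposited RSEM's expected counts for each gene, unscaled, of which 3.54 to 4.22% per library were not whole, and these were rounded here. RSEM divides reads between similar genes by estimate. Among members whose share of such stretches of 96 bases is not given above, it was largest in SP110 (14.7%), PSMB8 (12.9%) and IFI6 (11.1%). Strand use in counting is not given in the sources used here.

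The 44 genes, their roles and the other lists (interferon ligands and receptors, signalling, nucleic acid sensing, other interferon-stimulated genes, markers of OCI-AML3, HEK293T and other cells) were chosen with earlier results of these data known. A gene was kept at 1 CPM or more in 8 or more libraries (14012 genes). TMM scaling and edgeR 4.0.16 in R 4.3.3 gave a quasi-likelihood fit of 7 group means, with adjustment over all genes kept. SEs are the size of the log2 fold change over the square root of F, and CPM values use TMM library sizes. By the naming rule, members called with tunicamycin or between OCI-AML3 groups have values in each library of that comparison. The 4 transcription factors have them at 4 h of tunicamycin in OCI-AML3. Of the members called between the lines, only some are given library by library. From the other lists, genes called with tunicamycin or between OCI-AML3 groups are named. A gene that the rule names beside these is not reported here. Other genes named were chosen after their values were seen. Gene positions and exon lengths are from GENCODE on GRCh38, promoters from RefSeq on GRCh38.p14. Protein sequences were not used here. The fit was tested on simulated counts. Alternatives were limma voom (version 3.58.1), DESeq2 (version 1.42.0) as a Wald test or for size factors, library sizes without TMM, other count filters, separate fits for each comparison, a replicate block, no fold threshold, and leaving out each library. Figures used matplotlib 3.10.9.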

Additional observations from a re-analysis of the deposited data

Results flagged for a closer look

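In 5 cases every library moved one way with tunicamycin in one setting and the other way in another. How many of all genes did so is not given here, so nothing is read from that number. Tunicamycin libraries lay wholly above or below DMSO in 22.9% and 23.4% of all genes at 4 h in OCI-AML3. At 24 h the shares were 25% and 27.8%, and in HEK293T 23.4% and 25.7%. The differences are descriptions of genes selected on these comparisons and were not tested. ISG20 lay above DMSO in every library at 4 h (0.78) and below it at 24 h (-0.90) in OCI-AML3 cells, a difference of -1.68. USP18 did the same, at 0.48 and -0.72, a difference of -1.20. Between the lines at 24 h, ISG15 was higher with tunicamycin in HEK293T (0.86) and lower in OCI-AML3 (-1.59), a difference of 2.45. HERC6 was lower in HEK293T (-0.59) and higher in OCI-AML3 (0.83), a difference of -1.42. TAP1 was higher in HEK293T by 0.13 and lower in OCI-AML3 (-0.23), a difference of 0.36.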

How the results depend on the processing

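No called member changed sign under an alternative: 775 values of called members stayed past the threshold and 9 fell short (ISG20 in 5, IFI6 in 2, IFIT1 and STAT2 in 1 each). Without the fold threshold the members called were 6 higher and 12 lower between DMSO at 24 h and 4 h, 2 and 16 between 24 h and 0 h, 11 and 3 at 4 h of tunicamycin, 4 and 21 at 24 h, and 1 and 6 in HEK293T. Between DMSO at 24 h and 4 h, 0 members were called higher with library sizes without TMM or with no count filter, where ISG20 stood at 0.90 and 0.999, and 0 to 1 when 1 library was left out (0 without DMSO replicate 2 or 3 at 4 h or replicate 3 at 24 h). Leaving out 1 library gave 0 to 1 higher and 1 to 2 lower between DMSO at 24 h and 0 h (ISG20 at 1.14 without untreated replicate 2, SAMD9L at -1.05 without DMSO replicate 2), and 0 to 1 higher and 7 to 9 lower at 24 h of tunicamycin (RSAD2 at 1.01 without replicate 1). In HEK293T it gave 3 to 5 lower, with IFI6 at -1.05 without tunicamycin replicate 1, where the other added call, CMPK2, rests on 0 and 0.0671 CPM and has no usable fold. With no count filter IFI44L was also called lower with tunicamycin in HEK293T (-1.55), at levels below 1 CPM. The members' median without TMM was -0.239 between DMSO times, -0.129 at 24 h of tunicamycin, -0.24 with tunicamycin in HEK293T and -4.356 between the lines, where the median of all genes moved to 0.33 and IFIT1 (-0.86) and STAT2 (-0.84) were no longer called. The median over all 44 in HEK293T with tunicamycin (-0.208 as fitted) was -0.17 in limma voom, and -0.246 to -0.165 with 1 library left out. In OCI-AML3, leaving out 1 library took the median over 0.002 to 0.183 at 4 h of tunicamycin, -0.218 to -0.179 at 24 h, -0.19 to -0.043 between DMSO at 24 h and 4 h (nearest 0 without replicate 1 at 4 h), -0.228 to -0.033 between 24 h and 0 h and -0.172 to -0.043 between 4 h and 0 h (nearest 0 without untreated replicate 1 and without DMSO replicate 2). Between the lines it was -4.881 with no count filter and -4.795 to -4.589 with 1 library left out. With the replicate block it was -4.852, and the block left the counts of calls as they were but for 9 lower at 24 h of tunicamycin, with PSMB8 added. Correlations of same-numbered libraries ran from -0.155 to 0.199, so the numbers were not taken as pairing. For all these changes the cause was not tested. Levels of a few CPM, as for IFI44, IFI27 and most members in HEK293T, rest on few counts.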
